A study of Homo sapiens with 4 samples.

Results

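Receptors for bone morphogenetic proteins (BMPs) and activins, and the ID genes that BMP signalling switches on, were examined in Hs683 cells, an established human glioma line. The list held 10 genes, taken by symbol: the type I receptors BMPR1A, BMPR1B, ACVR1 and ACVR1B, the type II receptors BMPR2, ACVR2A and ACVR2B, and ID1, ID2 and ID3. Each of 8 of them was read by 1 probe set (a group of short array probes for the same transcript) that carried its symbol alone, out of 17716 genes named in this way. BMPR1A and ID2 were not analysed here. Cells transduced with miR-20a, a microRNA, on 2 arrays, were compared with cells given a non-targeting microRNA of scrambled sequence (miR-NT), also on 2 arrays. Cells of both groups had been depleted of QK, the gene now named QKI, and no array without that knockdown was analysed here. The labels do not say how the knockdown was made, whether the cells were 1 clone, or whether replicates were separate cultures, and p-values here reflect no more than array-to-array spread, possibly technical.

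BMPs and activins bind a complex of type II and type I receptors at the cell surface. The type II receptor is always active as a kinase and phosphorylates the type I receptor, which in turn phosphorylates SMAD proteins: SMAD1, SMAD5 and SMAD9 for the BMP branch, SMAD2 and SMAD3 for the activin branch. ID1, ID2 and ID3 are among the most direct targets of the BMP branch. Their proteins hold a helix-loop-helix domain without a DNA-binding part, so that they capture E proteins such as TCF3 and keep them from DNA, and in glial and neural precursors they are known for delaying differentiation. BMPR2 has been published as a target of miR-17 and miR-20a, which belong to the same microRNA family.

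The microRNA that separates the groups is shown first, since it pairs with its targets through its seed, bases 2 to 8, in capitals below. RefSeq (GRCh38.p14) places the 5p arm at chr13:91351072-91351094 on the plus strand and the 3p arm at chr13:91351108-91351129 on the same strand, and the labels do not say which arm was meant.
hsa-miR-20a-5p: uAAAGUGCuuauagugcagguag
hsa-miR-20a-3p: aCUGCAUUaugagcacuuaaag
The seed of the 5p arm is AAAGUGC, whose reverse complement, the letters of a perfect seed match in a transcript, is GCACUUU. This seed is held by 8 mature microRNAs of RefSeq, and 6 of them belong to the miR-17 family. The other family members are shown to make plain that they differ from miR-20a outside the seed.
hsa-miR-17-5p: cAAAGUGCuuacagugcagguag
hsa-miR-20b-5p: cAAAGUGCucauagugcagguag
hsa-miR-106a-5p: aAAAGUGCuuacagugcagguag
hsa-miR-106b-5p: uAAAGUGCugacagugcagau
hsa-miR-93-5p: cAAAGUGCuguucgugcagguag
Read from the 5′ end without gaps, miR-17-5p, miR-20b-5p and miR-106a-5p each have 21 bases identical to miR-20a-5p, miR-93-5p has 19 and miR-106b-5p has 18. No transcript sequence was searched for the seed match.

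The arrays had similar medians, 6.43 and 6.45 with miR-20a and 6.45 and 6.45 with miR-NT on the log2 scale. Their interquartile ranges were 3.06 and 2.92 with miR-20a, against 3.14 and 3.03 with miR-NT. The spread of values was thus narrowest on miR-20a replicate 2. QKI measured 7.52 and 7.08 with miR-20a, against 8.14 and 7.92 with miR-NT. At a log2 fold change of −0.73 (SE 0.16; limma adjusted p = 0.106), QKI was lower on both miR-20a arrays and did not pass. Of the glial and glioma markers, VIM was bright, between 14.02 and 14.32 on the 4 arrays, while GFAP, S100B, OLIG2 and NES were too dim to be tested. The summed log2 signal of the 8 glial and glioma markers was 51.23 to 51.84 with miR-20a and 50.44 to 50.65 with miR-NT. Of 11 measured markers of immune, epithelial and endothelial cells 3 were bright enough to be tested, CD3E, KRT8 and PECAM1, and all 5 neuronal markers were. At an unadjusted p under 0.05 in limma, PDGFRA (log2 fold change 0.37), CSPG4 (0.36), RBFOX3 (0.32), PECAM1 (0.30) and CD3E (0.28) were higher with miR-20a, where 5.82% of all genes were. Of the other tested markers, VIM (−0.19), SNAP25 (−0.21) and TUBB3 (−0.32) were lower on both miR-20a arrays and MAP2 (0.25) higher on both, without reaching that p. None of these markers passed over all genes, and their part in the results was not tested. A control probe set at the 5′ end of ACTB measured 11.59 and 10.43 with miR-20a, against 12.78 and 12.66 with miR-NT, and is set beside the results below. Its signal can vary with RNA integrity and labelling and also with the amount of ACTB RNA, and no 3′ control signal is given here.

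Among the type I receptors, ACVR1 was the bright one. It is a BMP receptor (ALK2) whose activating changes cause heterotopic bone formation and which is altered in some childhood gliomas of the brainstem. Its probe set measured 9.83 and 9.55 with miR-20a, against 10.04 and 9.88 with miR-NT, and its mean lay above 90.4% of all probe sets. Both miR-20a arrays were below both miR-NT arrays, by a small gap between miR-20a replicate 1 and miR-NT replicate 2. The log2 fold change was −0.27 (SE 0.13, 95% interval −0.57 to 0.03), or 1.20-fold lower, and did not pass (limma adjusted p = 0.294). The other type I receptors analysed, BMPR1B and ACVR1B, were dim. BMPR1B, a BMP receptor known for its part in digit cartilage and in ovarian follicles, measured 5.17 and 5.68 with miR-20a, against 4.70 and 5.02 with miR-NT. It was the member with higher signal on both miR-20a arrays. ACVR1B, the main type I receptor of activin (ALK4), measured 5.02 and 5.41 with miR-20a, against 5.46 and 5.29 with miR-NT, and the groups overlapped. Both had means below 5.46, the mean of the dimmest gene kept for testing, and were not tested.

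For the dim genes fold changes come from a fit without the filter, and they are descriptions of weak signals. BMPR1B had a log2 fold change of 0.57 (SE 0.18, 95% interval 0.15 to 0.98; limma adjusted p = 0.212 over all 17716 genes). That of ACVR1B was −0.16 (SE 0.14, 95% interval −0.50 to 0.17). Within the miR-20a pair BMPR1B was 0.51 higher and ACVR1B 0.39 higher on replicate 2 than on replicate 1, so that the spread of either gene between the miR-20a arrays was near the size of its fold change or above it.

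**Figure D1:**
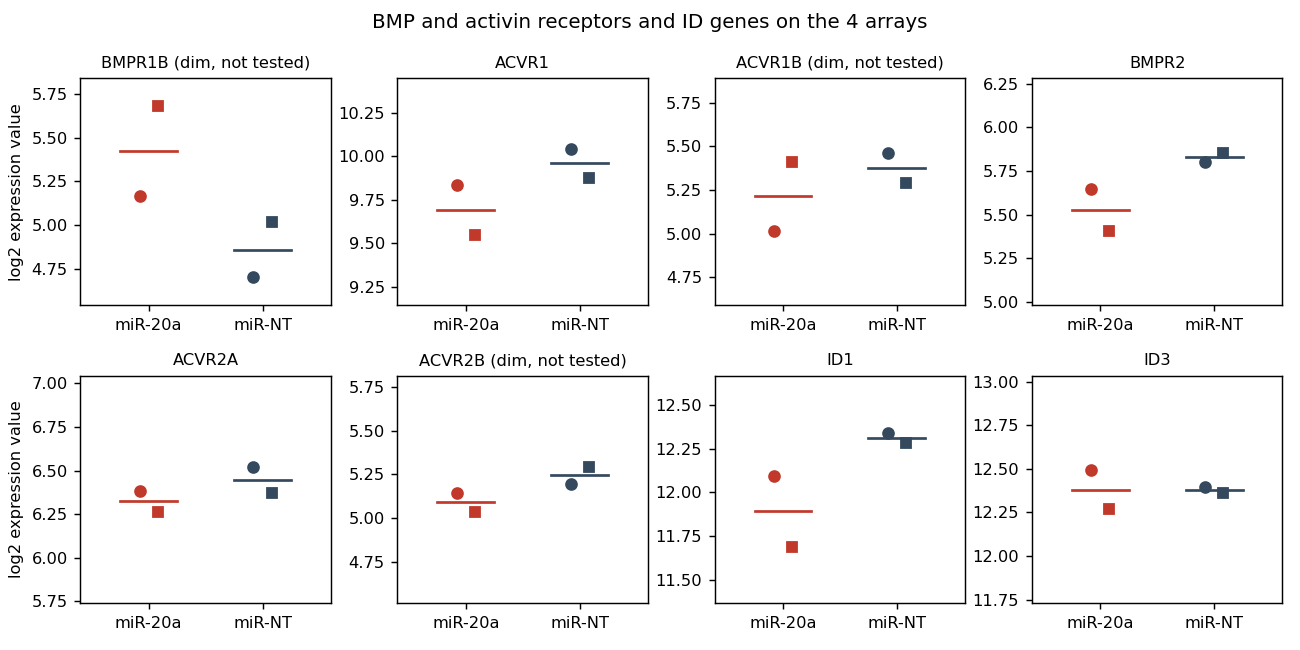
Log2 expression values (vertical axes, each spanning the same number of log2 units) of the 8 measured genes on the 4 arrays, with miR-20a left of miR-NT; circles are replicate 1, squares replicate 2 and bars group means. ID1, BMPR2, ACVR1 and the dim ACVR2B lie lower on both miR-20a arrays, BMPR1B lies higher on both, and ACVR1B, ACVR2A and ID3 overlap.

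The type II receptors gave modest to low signals. BMPR2, the type II receptor that serves BMPs, and whose loss causes heritable pulmonary arterial hypertension, measured 5.64 and 5.41 with miR-20a, against 5.80 and 5.86 with miR-NT. Both miR-20a arrays were lower than both miR-NT arrays, and miR-20a replicate 2 was the lowest of the 4. Its log2 fold change was −0.30 (SE 0.11, 95% interval −0.57 to −0.04), or 1.23-fold lower. Over all 12401 genes tested it did not pass (limma adjusted p = 0.224, unadjusted p = 0.0294). BMPR2 was also close to the limit of testing, with a mean of 5.68 where the dimmest gene kept had 5.46, and with the dimmest 50% of genes left out it was not tested.

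ACVR2A, a type II receptor shared by activins, myostatin and several BMPs, measured 6.38 and 6.26 with miR-20a, against 6.52 and 6.37 with miR-NT. The groups overlapped, since miR-20a replicate 1 stood slightly above miR-NT replicate 2. Its log2 fold change was −0.12 (SE 0.11, 95% interval −0.37 to 0.12; limma adjusted p = 0.51). ACVR2B, its close relative with high affinity for activins and myostatin, measured 5.14 and 5.03 with miR-20a, against 5.20 and 5.29 with miR-NT, and was left out as dim. In the fit without the filter its log2 fold change was −0.16 (SE 0.10, 95% interval −0.39 to 0.08), with both miR-20a arrays just under the miR-NT arrays.

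ID1 and ID3 gave some of the brightest signals on the arrays. The probe set of ID1 lay above 98.6% of all probe sets and that of ID3 above 99.0%, although signals of different probe sets do not rank transcripts by abundance. ID1 measured 12.10 and 11.69 with miR-20a, against 12.34 and 12.29 with miR-NT. Both miR-20a arrays were lower, and they were 0.41 apart where the miR-NT arrays were 0.06 apart. The log2 fold change was −0.42 (SE 0.14, 95% interval −0.75 to −0.09), or 1.34-fold lower, the largest downward value of the 8 genes. It did not pass over all genes (limma adjusted p = 0.199, unadjusted p = 0.0188). ID3 measured 12.49 and 12.27 with miR-20a, against 12.40 and 12.36 with miR-NT, so that the miR-20a arrays lay on either side of the miR-NT arrays. Its log2 fold change was 0.00 (SE 0.11, 95% interval −0.25 to 0.26; limma adjusted p = 0.991). The difference between the fold changes of ID1 and ID3 was not tested.

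Over all 12401 genes, 0.00806% were called at an adjusted p under 0.05, 1 gene in all, and none of the 5 tested members was. Before adjustment, at a p under 0.05, ID1 and BMPR2 were lower, 2 of the 5, where 13.2% of all genes were lower and 5.82% higher. In counts this was 722 higher and 1633 lower over all genes, and after quantile normalization 1583 higher and 1451 lower. The groups did not overlap, with miR-20a lower, for ID1, BMPR2 and ACVR1, 3 of the 5, against 31.1% of all genes, and for no tested member with miR-20a higher, against 25.1%. With 5 genes these shares say little about the members as a set. Their median log2 fold change was −0.27, and that of all tested genes was −0.02. The members' median was −0.41 without miR-20a replicate 1, −0.13 without miR-20a replicate 2, −0.17 after quantile normalization and 0.18 with the ACTB 5′ covariate, where that of all genes was 0.05.

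**Figure D2:**
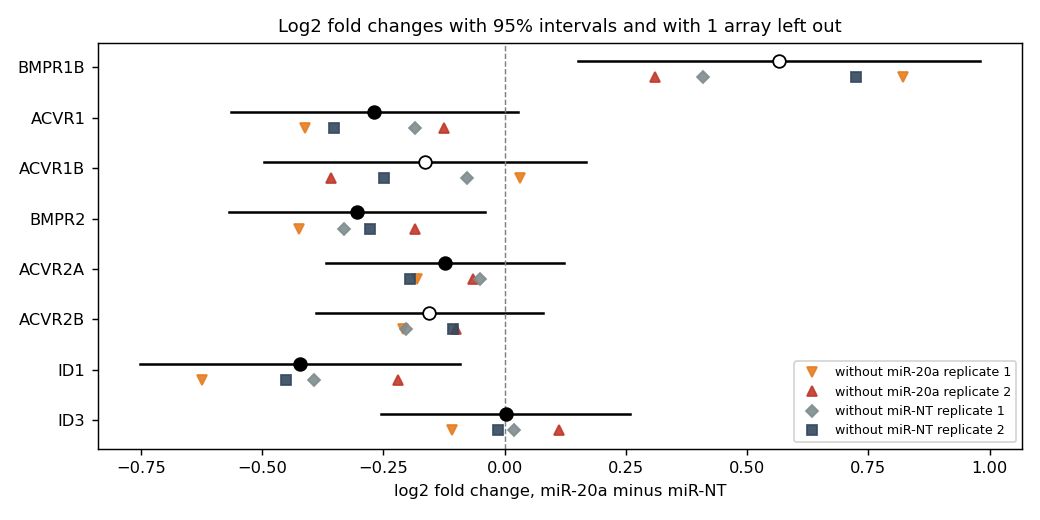
Log2 fold changes (miR-20a minus miR-NT, horizontal axis) of the 8 genes with 95% intervals of the limma fit as lines; filled circles are tested genes, open circles dim ones, and small symbols the value with 1 array left out. ID1 ranged from −0.62 without miR-20a replicate 1 to −0.22 without miR-20a replicate 2, and the values of ID3 lay on both sides of 0.

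The size of these values rested on miR-20a replicate 2. Without miR-20a replicate 1, so that replicate 2 stood alone, the log2 fold change was −0.62 for ID1, −0.42 for BMPR2 and −0.41 for ACVR1. Such a fit takes the spread of miR-20a from the miR-NT pair. It called all 3 as lower (limma adjusted p = 0.00107, 0.0259 and 0.0335 in that order), as it did 12.6% of all genes tested. Without miR-20a replicate 2 the values were −0.22 for ID1, −0.18 for BMPR2 and −0.13 for ACVR1, and none passed (limma adjusted p = 0.47, 0.562 and 0.722 in that order), while 1.86% of all genes were called lower. BMPR1B ranged from 0.31 without miR-20a replicate 2 to 0.82 without miR-20a replicate 1. In the fit with replicate 2 alone, run without the filter on dim genes, BMPR1B passed as higher (limma adjusted p = 0.00816), as did 0.632% of 17716 genes.

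The ACTB 5′ control also differed between the arrays. It was 1.16 lower on miR-20a replicate 2 than on replicate 1, and its log2 difference between miR-20a and miR-NT was −1.71. For the 5′ control of GAPDH the values were 13.17 and 12.30 with miR-20a, against 13.89 and 13.81 with miR-NT. ID1, ACVR1, BMPR2 and ID3 were each lower on miR-20a replicate 2 than on replicate 1, by 0.22 to 0.41. ACVR2A and ACVR2B were lower by 0.12 and 0.11, while BMPR1B and ACVR1B were higher, by 0.51 and 0.39. When the ACTB 5′ signal was a covariate, in a fit with 1 residual degree of freedom and the same SE of 0.25 for every gene, the log2 fold change was 0.18 for ID1, 0.04 for BMPR2, 0.18 for ACVR1 and 0.07 for ACVR2A. In that fit ID3 was at 0.33, BMPR1B, without the filter, at −0.23 (SE 0.25) and ACVR1B, likewise, at −0.71 (SE 0.25). The parts of RNA or labelling quality, of the amount of ACTB RNA and of miR-20a in these values cannot be told apart. Both miR-20a arrays had a lower control signal than both miR-NT arrays.

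**Figure D3:**
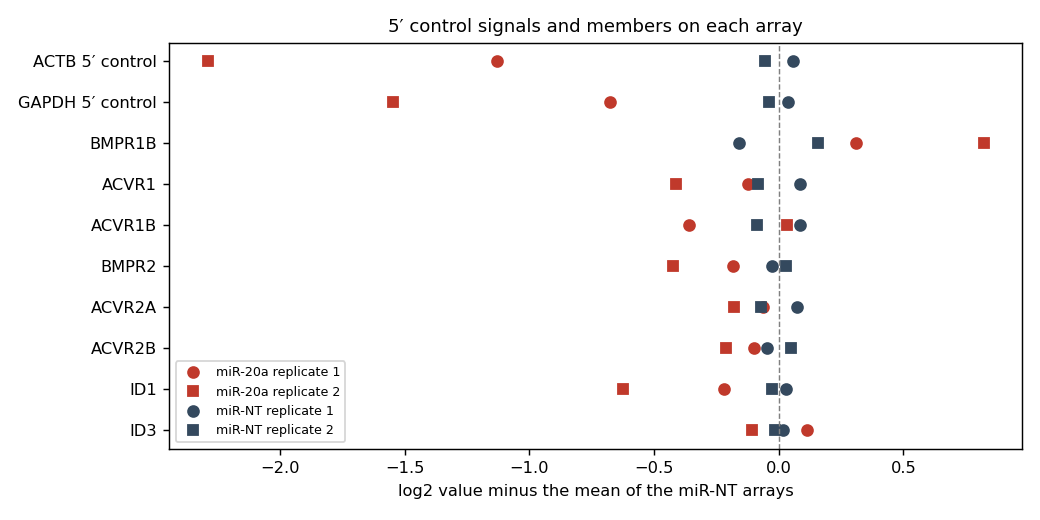
Log2 values minus the mean of the miR-NT arrays (horizontal axis) for the ACTB and GAPDH 5′ controls and the 8 genes; red is miR-20a, dark blue miR-NT, circles replicate 1 and squares replicate 2. Both controls are lowest on miR-20a replicate 2, which is also the lowest array for ID1, ID3, BMPR2, ACVR1, ACVR2A and ACVR2B and the highest for BMPR1B.

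Other genes of the pathway were taken from 8 lists by role, 86 genes in all, of which 77 were measured and 51 tested. None passed over all genes; 22 had log2 fold changes above 0 and 29 below, with a median of −0.05. Before adjustment 9 were higher and 10 lower at a p under 0.05, against 5.82% higher and 13.2% lower over all genes. The ligands gave small values. The 9 tested BMP ligands had a median of −0.05, with 0 at an unadjusted p under 0.05 in limma, and BMP6 was the one with the smallest p (log2 fold change 0.23, 95% interval −0.0005 to 0.46). BMP7 was at −0.11 and BMP8A at −0.09. Of the 5 tested activin-related ligands, INHBC, an inhibin beta chain known from liver, was at 0.38 (SE 0.10; limma adjusted p = 0.147), GDF11, which acts through the type II activin receptors, at −0.16 and GDF3 at −0.07.

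Of the extracellular antagonists, many of which keep ligands from the receptors, 8 were tested and 4 lay on each side of 0. NOG, the BMP antagonist noggin, which BMP signalling also induces, measured 7.93 and 7.87 with miR-20a, against 7.69 and 7.36 with miR-NT. Its groups did not overlap, at a log2 fold change of 0.37 (SE 0.13; limma adjusted p = 0.207). Follistatin, FST, which binds activins, was bright at 12.75 and 12.38 with miR-20a, against 12.74 and 12.71 with miR-NT, and its groups overlapped. SOST, a secreted inhibitor best known from bone, was at −0.28 (SE 0.11). The 6 other receptors and co-receptors tested were all below 0, as were 6669 of the 12401 genes tested. The median of the 6 was −0.16, and 0.03 with the ACTB 5′ covariate. RGMB, a BMP co-receptor, was at −0.52 (SE 0.18; limma adjusted p = 0.216), the TGF-beta family co-receptor endoglin, ENG, at −0.19, and BAMBI, a decoy receptor without kinase activity, at −0.20. TGFBR2 was at −0.13 (SE 0.12).

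Downstream of the receptors, the values ran both ways. Of 10 SMADs and SMAD ubiquitin ligases 5 were above and 5 below 0 (median −0.08). SMAD3 of the activin branch measured 7.31 and 6.76 with miR-20a, against 7.93 and 7.91 with miR-NT, and SMAD4, the partner of both branches, was at −0.51 (SE 0.14). SMAD5 of the BMP branch measured 7.55 and 7.10 with miR-20a, against 7.75 and 7.63 with miR-NT. SMAD1 of the same branch measured 7.27 and 7.37 with miR-20a, against 7.07 and 7.10 with miR-NT. SMAD9, the other BMP SMAD, measured 8.47 and 8.35 with miR-20a, against 8.42 and 8.14 with miR-NT, and its groups overlapped. The log2 fold changes were −0.36 for SMAD5, 0.24 for SMAD1 and 0.13 for SMAD9, none past the test, and with the ACTB 5′ covariate 0.31, 0.09 and 0.34 in that order. All 5 tested proteins that bind the receptors or carry signals without SMADs were below 0 (median −0.43), each at an unadjusted p under 0.05, where 13.2% of all genes were lower. FKBP1A, which holds type I receptors inactive until a ligand binds, measured 8.39 and 7.78 with miR-20a, against 9.38 and 9.16 with miR-NT. Its log2 fold change was −1.19 (SE 0.19; limma adjusted p = 0.0812). After median centring it passed (limma adjusted p = 0.0499), where 45 of 12401 genes were called lower. It did not pass after quantile normalization (limma adjusted p = 0.0709) or with the replicate number as a block (limma adjusted p = 0.139). The kinase MAP3K7 (TAK1) was at −0.89 (SE 0.21), its binding partner TAB2 at −0.37 (SE 0.11), LIMK1, a kinase that binds the tail of BMPR2, at −0.43 (SE 0.13) and XIAP, which links type I receptors to TAB1, at −0.28 (SE 0.12). The size of several of these values depended on the miR-20a array used. Without miR-20a replicate 1 they were −1.50 for FKBP1A, −1.25 for MAP3K7, −1.16 for SMAD3 and −0.80 for RGMB. SMAD4 was then at −0.70, LIMK1 at −0.59, SMAD5 at −0.59, XIAP at −0.41 and TAB2 at −0.35. Without miR-20a replicate 2 the values were −0.88 for FKBP1A, −0.54 for MAP3K7, −0.61 for SMAD3 and −0.24 for RGMB. SMAD4 was then at −0.32, LIMK1 at −0.26, SMAD5 at −0.14, XIAP at −0.15 and TAB2 at −0.39. When the ACTB 5′ signal was a covariate, FKBP1A was at −0.26, MAP3K7 at 0.18, TAB2 at −0.39, LIMK1 at 0.05 and XIAP at 0.10, so that the median of these 5 turned to 0.05. In that fit SMAD3 was at −0.09, SMAD4 at 0.07 and QKI at −0.06. Without the covariate SMAD3 was at −0.89 (SE 0.17; limma adjusted p = 0.0963) and QKI at −0.73.

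**Figure D4:**
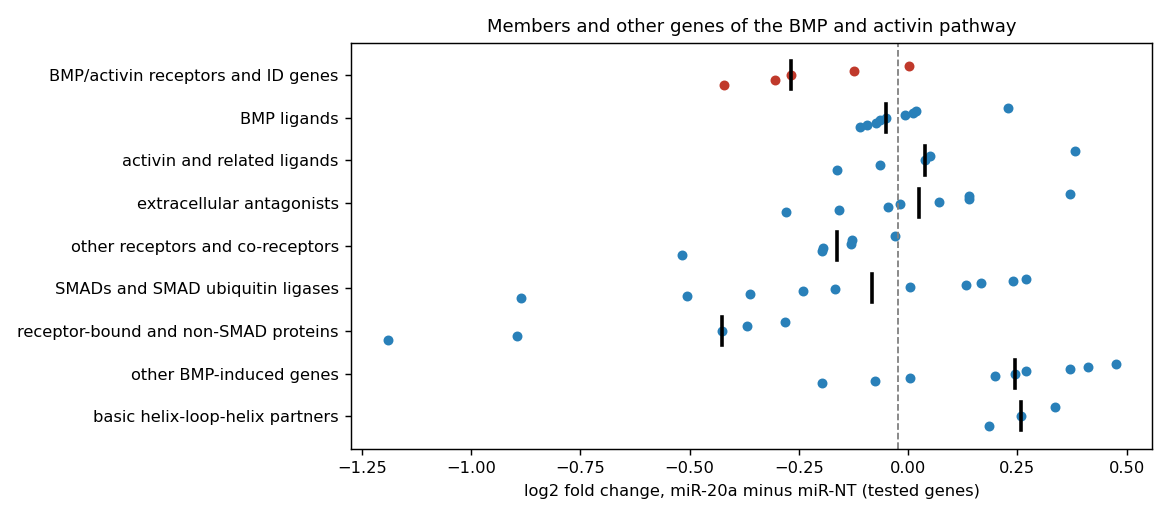
Log2 fold changes (miR-20a minus miR-NT, horizontal axis) of the tested genes of each list, 1 point per gene, with black bars at list medians and a dashed line at the median of all tested genes (−0.02). The medians of the receptors and ID genes (red, −0.27) and of the receptor-bound and non-SMAD proteins (−0.43) lie left of the line. That of the other BMP-induced genes (0.25) lies right of it. Single genes depart from their medians: ID3 (0.00) lies right of the line, and BAMBI (−0.20) and MSX1 (−0.08) left of it. With the ACTB 5′ covariate these medians were 0.18, 0.05 and 0.32.

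Other genes that BMP signalling is known to induce had mostly positive values. Of 9 tested, 7 were above 0 and 2 below, with a median of 0.25. At an unadjusted p under 0.05 in limma 5 of them were higher, where 5.82% of all genes were. After quantile normalization the same 5 and RUNX2 were higher at that threshold, where 1583 of 12401 genes were. None passed over all genes. ID4, the fourth member of the ID family, measured 6.50 and 6.57 with miR-20a, against 6.07 and 6.04 with miR-NT. The groups were well separated, at a log2 fold change of 0.48 (SE 0.10, 95% interval 0.25 to 0.70; limma adjusted p = 0.0981). ID4 was at 0.51 without miR-20a replicate 1 and at 0.44 without miR-20a replicate 2. HEY1, a repressor of the Hairy family that BMP and Notch signals induce, measured 9.43 and 9.50 with miR-20a, against 9.09 and 9.03 with miR-NT. Its log2 fold change was 0.41 (SE 0.10; limma adjusted p = 0.122). The HEY1 value was 0.44 when replicate 2 stood alone for miR-20a, and 0.38 when replicate 1 did.

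ATOH8, a helix-loop-helix factor, measured 9.18 and 9.04 with miR-20a, against 8.89 and 8.84 with miR-NT. SMAD6, which inhibits the BMP branch, measured 6.60 and 6.52 with miR-20a, against 6.23 and 6.34 with miR-NT. Both were higher on each miR-20a array. RUNX2, a bone transcription factor, was at 0.20 (SE 0.10), SMAD7 at 0.00 (SE 0.10) and the homeobox gene MSX1 at −0.08 (SE 0.11). When the ACTB 5′ signal was a covariate, the log2 fold changes were 0.38 for ID4, 0.32 for HEY1, 0.46 for ATOH8, 0.37 for SMAD6, 0.50 for NOG, 0.10 for RUNX2, 0.21 for SMAD7 and −0.07 for MSX1, with the SE of 0.25 that every gene had. The sign was kept in 8 of the 9 genes and turned in BAMBI, to 0.10, and 1 of the 9 reached an unadjusted p under 0.05 in that limma fit, NOG (0.043).

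**Figure D5:**
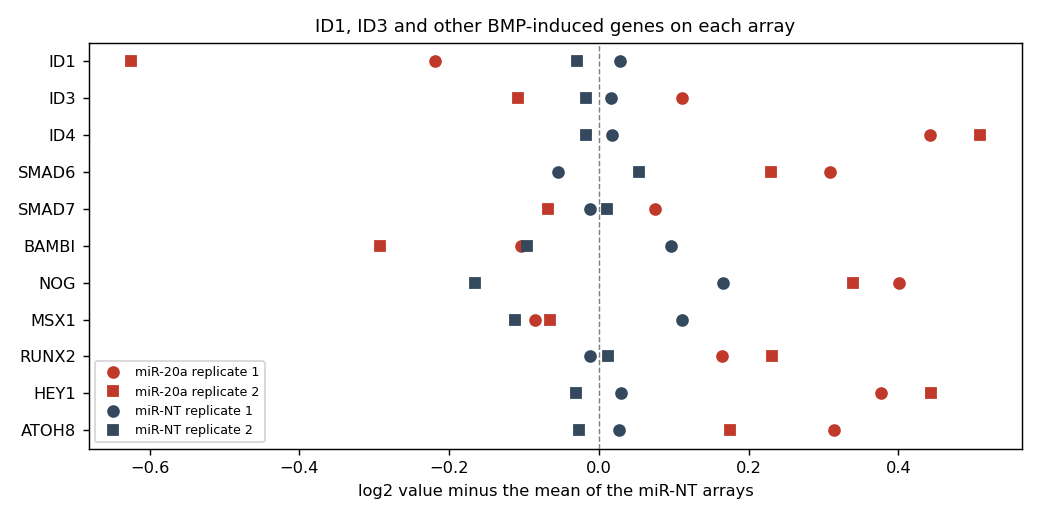
Log2 values minus the mean of the miR-NT arrays (horizontal axis) for ID1, ID3 and the 9 other tested genes that BMP signalling induces; red is miR-20a, dark blue miR-NT, circles replicate 1 and squares replicate 2. ID1 and BAMBI lie left of their miR-NT arrays on both miR-20a arrays, and ID4, HEY1, NOG, ATOH8, SMAD6 and RUNX2 right of theirs. Over all tested genes 31.1% were lower on both miR-20a arrays and 25.1% higher.

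E proteins and other basic helix-loop-helix factors that ID proteins bind or act beside were tested in 3 cases. All were above 0, TCF3 by the brighter of its probe sets, as were 5732 of the 12401 genes tested. HES1, a Notch effector, was at 0.26 (SE 0.10) and the E protein TCF4 at 0.19 (SE 0.10). For the E protein TCF3 the brighter probe set measured 9.22 and 9.19 with miR-20a, against 8.89 and 8.85 with miR-NT. The other TCF3 probe set measured 5.64 and 5.27 with miR-20a, against 5.97 and 5.92 with miR-NT. The probe sets thus gave opposite differences, 0.34 and −0.49, and TCF3 has no settled direction.

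The genes whose 4 values, each minus its own mean, lay nearest to those of BMPR2 were AUTS2, FYTTD1 and LTBP3, at Euclidean distances of 0.01, 0.02 and 0.03 log2 units. For ID1 they were ARPC2, NCAPG2 and ARPP19, at 0.02, 0.03 and 0.03. These distances describe 4 arrays, which share groups and array-wide differences, and many of the 12401 genes can come close over so few points.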

How the data were processed

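Total RNA was measured on Affymetrix arrays. The authors deposited 1 value for each probe set on each array, taken as log2 expression from its range. The R package affy is named in the submitters' processing notes, while the sources used here give no summarisation, background correction, normalization or genome build. Array number limits the precision.

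Of 20323 probe sets, those with 1 symbol in the platform annotation, updated through RefSeq identifiers (18036 matched), were used, with the highest mean over the 4 arrays per gene. The 886 probe sets with several symbols, 1 of which lists ID2, and the 3 control probe sets were left out, as were the 5315 dimmest genes (30%). The test of the other 12401 used R 4.3.3 and limma 3.58.1 (lmFit, eBayes, two-sided, no covariate; 2 residual and 5.53 prior degrees of freedom), with Benjamini-Hochberg adjustment over all of them. An exact permutation test of 2 against 2 arrays cannot reach 0.05, and none was run. Standard errors and 95% intervals are those of this fit. The fit was tested on simulated data. The text names all members, QKI, TGFBR2, the 3 smallest p-values of each pathway list and the 3 genes nearest to BMPR2 and ID1; other pathway genes (SMAD1, SMAD5, SMAD9, ATOH8, RUNX2, SMAD7, MSX1, LIMK1, XIAP) and markers were chosen after their values were seen. Members and lists were chosen with earlier results of these data known. Alternatives were quantile normalization, median centring, other filters, an intensity trend, averaged probe sets per gene, the replicate number as a block, an ACTB 5′ covariate and each array left out.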

Additional observations from a re-analysis of the deposited data

How the results depend on the processing

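Counts of genes called depended on the processing: 0 higher and 1 lower in the fit as reported, 5 lower after quantile normalization, 2 higher and 45 lower after median centring, 4 lower with the dimmest 50% left out, 1 higher and 23 lower with an intensity trend and a robust prior, and 1 higher and 5 lower with an ACTB 5′ covariate. With an array left out they ranged from 0 to 302 higher, most without miR-20a replicate 1, and from 0 to 1567 lower. At an unadjusted p under 0.05, against 722 higher, 1095 were higher without a filter, 468 with the dimmest 50% left out, 417 with the ACTB 5′ covariate and 309 to 1048 with an array left out; against 1633 lower, 429 were lower with that covariate and 549 to 2541 with an array left out. The replicate number as a block gave 0 lower calls and called no member; the replicate differences of the groups correlated at 0.27 over tested genes, and 2 pairs do not show that the numbers pair the arrays.

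With the ACTB 5′ covariate the sign turned for BMPR1B (−0.23), BMPR2 (0.038), ACVR1 (0.18), ACVR2A (0.068), ID1 (0.18), TGFBR2 (0.18), SOST (0.0017), FST (0.39), RGMB (0.33), BAMBI (0.10), SMAD4 (0.074), SMAD5 (0.31), MAP3K7 (0.18), LIMK1 (0.046) and XIAP (0.10); the cause was not tested. With an array left out it turned for ACVR1B (−0.36 to 0.032), ID3 (−0.11 to 0.11), GDF3 (−0.22 to 0.092), FST (−0.35 to 0.029), SMAD7 (−0.068 to 0.075), SMAD9 (−0.011 to 0.27) and MSX1 (−0.19 to 0.036). TCF3 was at −0.076 with its probe sets averaged. No member passed outside the fits that left out an array.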
